A study of Mus musculus with 21 samples.

Results

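The array carries 16181 probes for stretches of the mouse genome that have no gene symbol and are named only by chromosome, start, end and strand, in the form chr17:71183978-71185384_F, where F is the forward and R the reverse strand. They stand for 4607 strand-specific regions on 20 chromosomes, with 1 to 10 probes each (median 3), among the 55681 probes of the whole array. A probe was kept where its sample signal stood well above background on 3 or more of the 21 arrays. This kept 5503 region probes (34% of them, against 61.1% of the other probes) in 2728 regions (59.2%), of which 1367 are forward and 1361 reverse. Of the region probes, 8728 were above background on no array, 1950 on 1 or 2 arrays, and 2585 on all 21. Of 16181 region probes, 16063 lie inside the interval and on the strand of their name, and the other 118 have no position that could be read. The kept regions are 67 to 538251 bases long (median 11576).

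The arrays measured RNA of mouse intestinal organoids, which are crypts of the small intestine kept as a growing epithelium inside a gel. All groups carry the same transgene, a human myc-tagged beta-catenin without its N-terminal part under a tetracycline-responsive promoter, with the activator M2-rtTA driven by the endogenous ROSA26 promoter, and all are grown with epidermal growth factor, Noggin and R-spondin 1. With doxycycline in the medium, which keeps the mutant beta-catenin on, 7 arrays were of vehicle cultures, and the sample titles tell these apart by the letters A to G. Compounds 2 and 9 have 3 arrays apiece, lettered A to C, and compound 6 has 4, lettered D to G, with the compound given in every case for 24 h at 2 µM. A last group of 4 arrays, lettered D to G, was of cultures from which doxycycline had been taken away for 24 h. The description of the series calls the compounds close analogues, and gives as their targets the Mediator kinases CDK8 and CDK19. Every array set the sample (Cy3) against one mouse reference RNA (Cy5), and values are log2 sample over reference. No group lacked the transgene, so the drug doxycycline and the mutant beta-catenin that it switches on cannot be told apart here.

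Long non-coding RNAs are transcripts that are not translated into protein. Some act in the nucleus on chromatin or on neighbouring genes, some host small RNAs in their introns, and for many no function is known. The Mediator kinases tune transcription by RNA polymerase II, and beta-catenin is the transcriptional effector of Wnt signalling, which maintains intestinal stem cells. The name of a region says nothing of its coding status: 564 of the 2728 kept regions hold a probe of a named gene inside their interval, 342 of them on the same strand, and 97 kept region probes overlap a gene probe on the same strand. For those probes the label non-coding is not borne out by the array, and the signals of region and gene cannot be told apart.

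The probes of the regions on which the results turn are shown first, as deposited, 5′ to 3′, with their position in the mouse build mm9. The region with the largest fall with compound 2 is covered by 3 probes at its end, all of which fell, and the other 3 sequences belong to the regions with the strongest falls with compound 6 or after withdrawal.
chr17:71183978-71185384_F probe at chr17:71185146-71185205, strand F: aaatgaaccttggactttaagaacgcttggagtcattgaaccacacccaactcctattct
chr17:71183978-71185384_F probe at chr17:71185206-71185265, strand F: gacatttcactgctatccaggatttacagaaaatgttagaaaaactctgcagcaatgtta
chr17:71183978-71185384_F probe at chr17:71185320-71185379, strand F: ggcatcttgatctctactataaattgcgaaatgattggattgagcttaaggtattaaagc
chr19:46422690-46423478_R probe at chr19:46422802-46422861, strand R: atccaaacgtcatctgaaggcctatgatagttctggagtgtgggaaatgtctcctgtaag
chr4:21683562-21694350_R probe at chr4:21684757-21684816, strand R: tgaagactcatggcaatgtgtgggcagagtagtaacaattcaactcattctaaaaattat
chr5:23195569-23218551_R probe at chr5:23204747-23204806, strand R: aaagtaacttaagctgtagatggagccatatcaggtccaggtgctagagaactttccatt

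Of the regions that rose with both compound 2 and compound 6, chr5:35975265-35982561_F, which rose on all 4 of its probes, is shown by its brightest probe.
chr5:35975265-35982561_F probe at chr5:35976912-35976971, strand F: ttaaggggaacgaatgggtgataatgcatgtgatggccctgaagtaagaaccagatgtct

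The next set holds probes of regions that rose with compound 6, chosen to show a shared sequence, and the region with the largest rise. The capitals mark TGGTGTCTGTGGGTGATTTCT, the longest run of letters common to the probes of 2 regions on different chromosomes, and in 2 more probes the shorter GTGTCTG, which lies within it. The last probe, of the region with the largest rise, holds neither. Of the 27 regions that rose 2-fold or more with compound 6, the brightest probe held GTGTCTG in 7, so most rises came without it.
chr3:151746091-151753763_R probe at chr3:151750918-151750977, strand R: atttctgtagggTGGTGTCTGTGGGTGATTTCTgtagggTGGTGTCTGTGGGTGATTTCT
chr3:151746091-151753763_R probe at chr3:151750982-151751041, strand R: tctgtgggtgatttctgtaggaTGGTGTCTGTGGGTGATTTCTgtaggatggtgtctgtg
chr3:151746091-151753763_R probe at chr3:151751053-151751112, strand R: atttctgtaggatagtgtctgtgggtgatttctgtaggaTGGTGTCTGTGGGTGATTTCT
chr12:83271350-83357214_R probe at chr12:83336489-83336548, strand R: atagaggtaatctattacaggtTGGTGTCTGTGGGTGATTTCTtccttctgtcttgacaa
chr3:117935228-118089771_F probe at chr3:118029564-118029623, strand F: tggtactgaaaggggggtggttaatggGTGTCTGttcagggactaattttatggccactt
chr13:60508775-60534625_F probe at chr13:60524272-60524331, strand F: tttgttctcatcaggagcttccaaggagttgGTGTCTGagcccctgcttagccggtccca
chr14:33975934-33998694_R probe at chr14:33998629-33998688, strand R: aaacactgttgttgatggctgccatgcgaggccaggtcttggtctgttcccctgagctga

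The probes below are of 2 regions that rose with compound 2 and of chr19:5771425-5848475_F, which was not called with compound 2 and is shown because its probes hold the same letters. Capitals mark TCCTGCCCCAC, the longest run common to the brightest probes of these 3 regions. The last 2 are of 1 region and overlap each other.
chr5:74487385-74497428_F probe at chr5:74490086-74490145, strand F: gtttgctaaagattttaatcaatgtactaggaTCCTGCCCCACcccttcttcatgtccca
chr14:70483555-70484159_F probe at chr14:70484090-70484149, strand F: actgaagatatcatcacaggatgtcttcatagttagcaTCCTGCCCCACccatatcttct
chr19:5771425-5848475_F probe at chr19:5845035-5845094, strand F: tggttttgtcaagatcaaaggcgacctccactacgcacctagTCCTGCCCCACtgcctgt
chr19:5771425-5848475_F probe at chr19:5845052-5845111, strand F: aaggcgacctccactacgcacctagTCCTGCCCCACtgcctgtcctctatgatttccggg

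The last set is of probes that rose with both compounds, and capitals mark GCCCTCCC. How often each marked sequence occurs is given with the values of the probes that hold it.
chr2:77715502-77719430_F probe at chr2:77719371-77719430, strand F: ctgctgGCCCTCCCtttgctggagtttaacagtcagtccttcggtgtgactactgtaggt
chr12:70637975-70638314_R probe at chr12:70638022-70638081, strand R: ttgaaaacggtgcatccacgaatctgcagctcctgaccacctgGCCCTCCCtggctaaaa
chr16:30939991-30940193_F probe at chr16:30939997-30940056, strand F: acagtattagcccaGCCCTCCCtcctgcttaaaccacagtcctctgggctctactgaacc

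The share of spots well above background in the sample channel was 42.6% to 51.9%. Between 4490 and 5062 region probes were above background on the arrays of letters A to C, and between 3374 and 4013 on those of D to G. The 2 letter sets were scanned on 2 days with different scanners, which cannot be told apart from each other, so every comparison with vehicle uses the vehicle arrays with the same letters. The median SD of a region probe within a group was 0.106 to 0.135. The labels do not say that the arrays of a group came from separate cultures, so the spread behind each p-value is that between arrays and may be technical. All 10 epithelial markers measured were kept. Of these Krt20 rose by 0.70 after withdrawal and by 0.51 with compound 6, Muc2 by 0.27 and 0.32, and Vil1 by 0.35 with compound 2. Olfm4 fell by 0.71 after withdrawal and by 0.52 with compound 6, and Epcam by 0.34 with compound 6. Olfm4 was above background on 3 arrays only, so its level was mostly at background. The fibroblast markers Col1a1, Col1a2 and Dcn lay at log2 ratios of -7.06 to -5.54 on all arrays. Of 4 kept fibroblast markers 2 rose with compound 6 (Col1a1 by 0.25 and Col1a2 by 0.23; Col1a1 also rose by 0.44 with compound 2), of 5 leukocyte markers 2 rose (Cd3e by 0.22 and Laptm5 by 0.25) and of 2 endothelial markers 1 rose and 1 fell; their part in the results was not tested. In bulk RNA, fewer cells of a type and less RNA per cell cannot be told apart.

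Across the regions, rises outnumbered falls after withdrawal and with compounds 2 and 6. After withdrawal 539 region probes passed the test (9.79%), 364 higher and 175 lower, and with compound 6 895 passed (16.3%), 632 higher and 263 lower. With compound 2, 127 passed (2.31%), 99 higher and 28 lower. Of all 29631 probes tested, 18.8% were called after withdrawal (6.81% higher and 12% lower), 23.3% with compound 6 (10.7% and 12.6%) and 4.42% with compound 2 (2.77% and 1.65%). Thus 11.5% of region probes were higher with compound 6, near the 10.7% of all probes, whereas 4.78% were lower against 12.6%. After withdrawal the shares were 6.61% higher and 3.18% lower. The filter also counts treated arrays, so it can keep a probe high only there. Of the 4538 region probes above background on 3 or more vehicle arrays, 340 (7.49%) were higher and 170 (3.75%) lower after withdrawal. With compound 6, 561 (12.4%) and 252 (5.55%) were so, and with compound 2, 94 (2.07%) and 28 (0.617%). Of all 27209 such probes, 7.22% were higher and 13% lower after withdrawal. The shares were 11% and 13.7% with compound 6, and 2.87% and 1.79% with compound 2. Of the 2585 region probes above background on all 21 arrays, 16.3% were higher and 6.58% lower with compound 6. Of all 20838 such probes, 12.5% and 15.6% were, so rises were less near each other there. After withdrawal the shares were 10.9% and 4.68%, against 8.66% and 15.2% of all such probes. With compound 2 they were 3.33% and 0.58%, against 3.34% and 2.01%. Called means a Benjamini-Hochberg adjusted p under 0.05 over all probes in limma. With the letter fitted as a block, the counts of region probes were 1144, 446 and 1393 for withdrawal, compound 2 and compound 6. These are 20.8%, 8.1% and 25.3% of region probes, against 36%, 14.7% and 38.5% of all probes. Leaving out 1 array, between 255 (without vehicle E) and 1011 (without vehicle F) region probes passed after withdrawal, and between 49 (without compound 2 A) and 179 (without vehicle F) with compound 2.

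With compound 9 none of the region probes passed (0% of all probes were called) in limma's test, with 128 of 5503 at an unadjusted p under 0.05, and the count was 0 also with the letter block. Counted by 1 probe per region, the brightest, 243 regions were called after withdrawal (160 higher and 83 lower), 417 with compound 6 (304 and 113), 76 with compound 2 (65 and 11) and 0 with compound 9. Changes were mostly small. Of the called region probes, 45 rose and 9 fell 2-fold or more with compound 6, 2 and 9 after withdrawal, and 15 and 4 with compound 2. Of all 29631 probes, 241 rose (0.813%) and 215 fell (0.726%) so with compound 6, 29 rose (0.0979%) and 348 fell (1.17%) after withdrawal, and 104 rose (0.351%) and 29 fell (0.0979%) with compound 2.

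**Figure D1:**
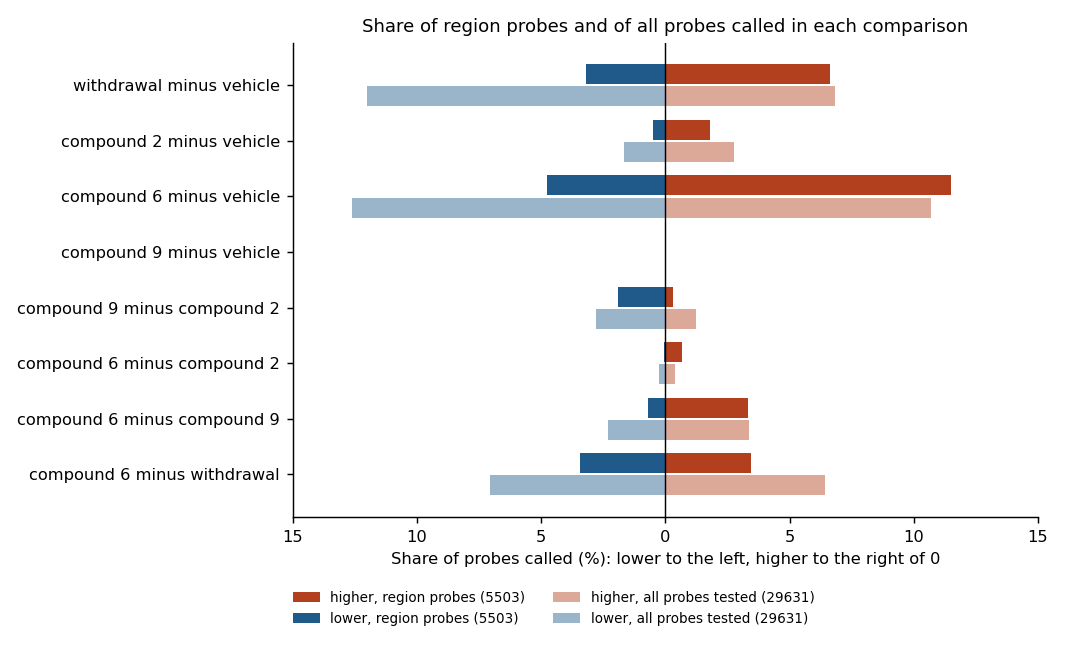
Share of the 5503 region probes (solid) and of all 29631 probes tested (pale) called lower, to the left, or higher, to the right, in each comparison, in percent. With compound 6, 4.78% of region probes were lower against 12.6% of all probes, and 11.5% were higher against 10.7%.

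Few regions fell strongly, but those that did mostly fell on every probe. The forward region chr17:71183978-71185384_F, 8.24 kb from the nearest probe of Tgif1, a homeodomain repressor of transcription, lay at 1.61, 1.52 and 1.42 in vehicles A to C and at -0.13, 0.23 and 0.25 with compound 2. It lay at 1.60, 1.70, 1.61 and 2.08 in vehicles D to G, at 0.51, 0.38, 0.53 and 0.62 with compound 6 and at 1.03, 0.95, 0.96 and 0.56 after withdrawal. None of these treated groups overlapped its vehicle arrays, and the 3 values with compound 9 (1.17, 1.46 and 1.01) overlapped theirs. The change was -1.40 ± 0.15 with compound 2 (log2, SE, adjusted p = 1.38e-05), -1.24 ± 0.13 with compound 6 (adjusted p = 2.33e-06) and -0.87 ± 0.13 after withdrawal (adjusted p = 3.4e-04). Its other probes changed by -1.05 and -1.27 with compound 2 and by -1.20 and -1.39 with compound 6. Tgif1, on the opposite strand, changed by 0.12 and 0.03 (adjusted p = 0.759 and 0.879).

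The reverse region chr4:21683562-21694350_R fell with both compounds and not after withdrawal. Vehicles A to C were at 2.22, 1.76 and 1.93 and compound 2 at 1.06, 0.83 and 0.83. Vehicles D to G were at 1.09, 1.15, 1.91 and 1.32, compound 6 at -0.20, 0.01, 0.00 and 0.14, and withdrawal at 1.45, 1.48, 1.95 and 1.57. Both compounds lay wholly below vehicle, and the withdrawn arrays overlapped it. The changes were -1.06 ± 0.19 (adjusted p = 0.00254), -1.38 ± 0.16 (adjusted p = 1.16e-05) and 0.25 ± 0.16 (adjusted p = 0.303). Compound 6 and withdrawal differed by -1.63 ± 0.16 (adjusted p = 3.42e-06). This probe overlaps a probe of Tstd3 on the same strand, which fell by 1.34 with compound 6, so it does not measure a transcript apart from that gene.

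The reverse region chr19:46422690-46423478_R holds a probe of 2310034G01Rik, a gene known by its clone name. It lay at 2.14, 2.43, 1.61 and 2.53 in vehicles D to G, at 1.31, 0.70, 0.74 and 1.18 with compound 6 and at 1.29, 1.28, 1.10 and 1.04 after withdrawal, with no overlap with vehicle. It changed by -1.19 ± 0.17 with compound 6 (adjusted p = 6.8e-05) and by -1.0 ± 0.17 after withdrawal (adjusted p = 7.2e-04). The gene's own probe fell by 0.94 and 0.86. A further 2 regions fell by 1.07 with compound 6: chr1:135956616-135957485_R, on all 3 of its probes, and chr15:83181291-83197750_R, on all 4, over the gene 1700001L05Rik, which fell by 0.92. All 5 regions that fell 2-fold or more with compound 6 had every other probe called in the same direction.

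**Figure D2:**
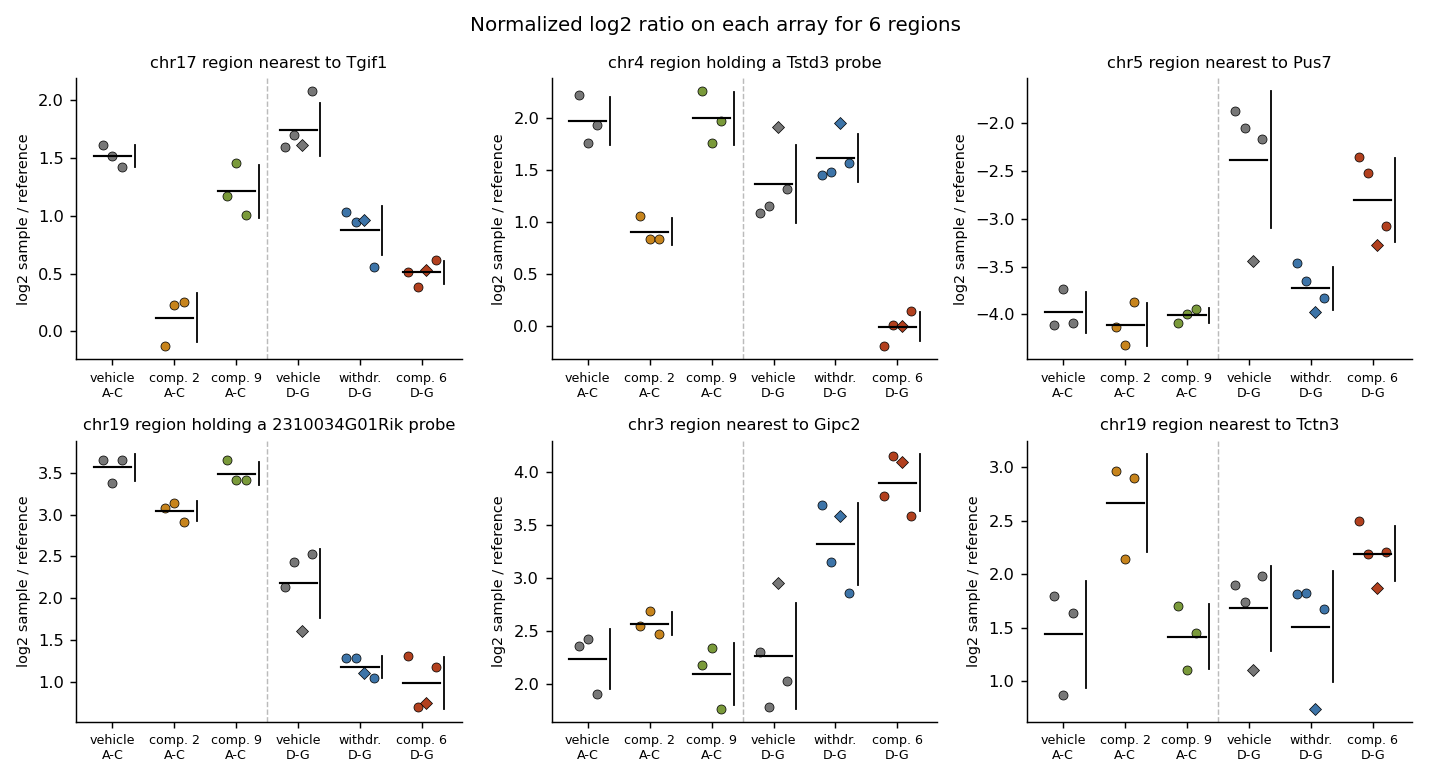
Normalised log2 ratio of sample over reference on each array for 6 regions, by group and letter set. Bars across are group means, side lines are 1 SD, diamonds are letter F and the dashed line parts the letter sets. The chr17 region nearest to Tgif1 lies lower with compound 2 (-0.13 to 0.25), compound 6 (0.38 to 0.62) and withdrawal (0.56 to 1.03) than in the vehicles of the same letters.

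After withdrawal the strongest fall was in the reverse region chr5:23195569-23218551_R, 28 kb from a same-strand probe of Pus7, a pseudouridine synthase of RNA. Vehicles D to G were at -1.87, -2.05, -3.44 and -2.17 and withdrawn arrays at -3.46, -3.65, -3.97 and -3.83. Vehicle F stood with the withdrawn arrays, -3.44 against -3.46 for the highest of them. The region fell by 1.34 ± 0.26 (adjusted p = 0.002), its other 3 probes changed by -1.20, -0.79 and -1.11, and Pus7 itself by -1.37. Without vehicle F the change was -1.70. Vehicles A to C, of the other letter set, were at -4.11, -3.73 and -4.09 and overlapped the withdrawn arrays.

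Vehicle F also stood nearest to the withdrawn arrays in the other large falls. The forward region chr14:44292637-44293014_F fell by 1.22 ± 0.20 (adjusted p = 6.86e-04), from -1.50, -1.42, -2.72 and -1.45 in vehicles D to G to between -3.04 and -2.89, and all its probes fell. The reverse region chr17:34018371-34019394_R overlaps a probe of Kifc1, a kinesin of the mitotic spindle, on the same strand; it fell by 1.04 ± 0.23 (adjusted p = 0.00494), Kifc1 by 1.01, and vehicle F, at -2.90, lay within the withdrawn arrays. The region chr11:16831925-16851121_R, whose probe overlaps one of Eldr, a long non-coding RNA downstream of Egfr, fell by 1.04 ± 0.32 (adjusted p = 0.0289, lost in 9 of 33 alternative settings) while the Eldr probe used changed by -0.16. Vehicle F, at -2.15, again lay within the withdrawn arrays of that region (-2.55 to -1.45), and without it the change was -1.47. The region chr17:95150800-95180650_F fell by 0.97 ± 0.25 (adjusted p = 0.0121), by 1.32 without vehicle F.

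The largest rises came with compound 6, and many were seen on 1 probe of a region only. The reverse region chr14:33975934-33998694_R, with 1 kept probe, rose by 1.71 ± 0.24 (3.28-fold, adjusted p = 8.16e-05), from 2.87, 2.71, 3.86 and 2.82 in vehicles D to G to 4.62, 4.86, 5.25 and 4.39. The region chr18:35967933-35986564_F rose by 1.65 ± 0.23 (adjusted p = 6.7e-05) on its brightest probe, while its other probes changed by 0.26 and -0.12. In chr3:117935228-118089771_F the rise was 1.54 ± 0.24 (adjusted p = 1.76e-04) on one probe and 0.05 on the other. The same held in chr13:60508775-60534625_F (1.53 ± 0.20, the other probe 0.11) and chr9:56910620-56919495_F (1.52 ± 0.26, the other probe 0.29). The region chr8:80581177-80621652_F, with 1 kept probe, rose by 1.63 ± 0.30 (adjusted p = 7.29e-04).

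In the reverse region chr3:151746091-151753763_R, 3.48 kb from a probe of Gipc2, all 3 probes rose. Vehicles D to G were at 2.30, 1.79, 2.95 and 2.03, compound 6 at 3.77, 4.15, 4.09 and 3.58, and withdrawal at 3.69, 3.15, 3.58 and 2.86. Compound 6 did not overlap vehicle, and 1 withdrawn array (2.86) lay below vehicle F (2.95). The rise was 1.63 ± 0.22 with compound 6 (adjusted p = 5.76e-05; 0.92 and 1.49 on the other probes) and 1.05 ± 0.22 after withdrawal (adjusted p = 0.00344; 0.62 and 0.87). With compound 2 the change was 0.33 ± 0.26 (adjusted p = 0.59), and Gipc2 changed by 0.10 with compound 6 (adjusted p = 0.422). These 3 probes lie side by side in a stretch whose letters repeat, as printed above.

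Withdrawal and compound 6 were compared with the same vehicle arrays, so their shared calls are given side by side only. Of 243 regions called after withdrawal and 417 with compound 6, 138 were in both (56.8% and 33.1%), 134 in the same direction. The overlap over all probes is not given here, so this count is not read as particular to the regions. The changes after withdrawal and with compound 6 were 0.99 and 1.71 in chr14:33975934-33998694_R, 0.98 and 1.65 in chr18:35967933-35986564_F, 0.95 and 1.52 in chr9:56910620-56919495_F and 0.91 and 1.54 in chr3:117935228-118089771_F. All of these rose under both treatments.

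Compound 6 minus withdrawal called 379 region probes (6.89%), 189 higher and 190 lower, against 13.5% of all probes (6.43% higher and 7.07% lower). With the letter block it called 885 (16.1%, against 30.7% of all probes). Some regions moved in opposite directions on their brightest probe. The reverse region chr9:40266027-40266460_R rose by 0.97 ± 0.16 after withdrawal (adjusted p = 7.01e-04) and fell by 0.56 ± 0.16 with compound 6 (adjusted p = 0.0159), from 0.72, 0.77, 1.38 and 0.71 in vehicles D to G to 1.86, 1.63, 2.09 and 1.88 and to 0.09, 0.48, 0.29 and 0.46. Of the compound 6 arrays 2 of 4 were well above background, so its level there is partly at background. The 3 groups did not overlap, and compound 6 minus withdrawal was -1.54 ± 0.16 (adjusted p = 5.42e-06). The second probe of this region rose by 0.82 after withdrawal (adjusted p = 0.00918) and changed by -0.28 with compound 6 (adjusted p = 0.358). The fall with compound 6 was thus called on the brightest probe only. Gramd1b, a sterol carrier whose probe lies 160 kb away on the same strand, rose by 0.88 after withdrawal and differed by -1.34 between compound 6 and withdrawal. In chr16:29942664-29948289_F the change was 0.82 ± 0.22 after withdrawal and -0.73 ± 0.22 with compound 6 (adjusted p = 0.0151 and 0.0239), and in chr11:120097758-120098581_F it was 0.74 ± 0.18 and -0.64 ± 0.18 (adjusted p = 0.00717 and 0.014), with -0.14 and -0.20 on its second probe.

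With compound 2, 32 regions called higher had several probes, and in 14 of these all other probes had the same sign. At least 1 other probe was called the same way in 7 of the 32, and all others in 4. Of the 5 regions with several probes that rose 2-fold or more with compound 2, 3 had at least 1 other probe called and 2 had all others called. The forward region chr19:40663924-40669352_F rose on all 3 of its probes. Its brightest probe lay at 1.80, 0.87 and 1.64 in vehicles A to C, at 2.96, 2.14 and 2.90 with compound 2 and at 1.70, 1.10 and 1.45 with compound 9. Compound 2 lay above both other groups. The rise was 1.23 ± 0.31 (adjusted p = 0.0264, lost in 6 of 33 alternative settings; 1.31 and 1.03 on the other probes), and Tctn3, a protein of the ciliary transition zone whose probe lies 1.8 kb away on the opposite strand, rose by 1.12. With compound 6 the change was 0.51 ± 0.27 (adjusted p = 0.179; 0.00106 with the letter block).

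In the forward region chr5:74487385-74497428_F, which holds a probe of the long non-coding RNA Dancr, 1 of 9 kept probes rose by 1.23 ± 0.24 with compound 2 (adjusted p = 0.00483) and the other 8 changed by -0.29 to 0.00. The same was seen in chr9:88575075-88611650_F, at 1.39 ± 0.32 (adjusted p = 0.0173) on one probe and -0.06 and -0.25 on the others. Regions with 1 kept probe were chr5:33773842-33942967_F (1.42 ± 0.33, adjusted p = 0.0166), chr14:70483555-70484159_F (1.21 ± 0.24, adjusted p = 0.00572) and chr1:135830093-135840837_F (1.18 ± 0.19, adjusted p = 0.00146). The smaller falls with compound 2 were chr4:132897264-132910714_R (-0.74 ± 0.19), chr10:66383049-66386347_F (-0.58 ± 0.13, above background on 8 arrays), chr5:122048289-122068947_R (-0.54 ± 0.14, its probe overlapping one of Acad12 on the same strand, at -0.50) and chr6:31078802-31079644_R (-0.53 ± 0.10), with all other probes of these regions negative too. The first 3 lost the call in 9 of 32, 6 of 32 and 8 of 33 alternative settings and were as small as -0.07, -0.17 and -0.12 without the term for the letter set; leaving out compound 2 C or vehicle A or C ended the call of each of the 3, as did leaving out compound 2 A for the regions of chr4 and chr5, compound 2 B for chr4 and vehicle B for chr5.

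Compounds 2 and 6 were compared with different vehicle arrays. Of 76 regions called with compound 2 and 417 with compound 6, 39 were called with both (51.3% and 9.35%), 38 of them in the same direction. Here too the overlap over all probes is not given, so the count is not read as particular to the regions. The forward region chr2:77715502-77719430_F lay at 1.70, 1.67 and 1.64 in vehicles A to C, at 2.84, 2.75 and 2.68 with compound 2, at 2.61, 2.61, 2.65 and 2.61 in vehicles D to G and at 3.55, 3.67, 3.78 and 3.65 with compound 6. Neither compound overlapped its vehicle, and the rises were 1.09 ± 0.10 (adjusted p = 4.49e-06) and 1.04 ± 0.09 (adjusted p = 2.73e-07). Its single probe overlaps, on the opposite strand, a probe of Cwc22, a splicing factor, which changed by -0.07 and by -0.24 (adjusted p = 0.778 and 0.0345).

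The forward region chr5:35975265-35982561_F rose on all 4 probes, by 0.67 to 0.79 with compound 2 and by 0.61 to 0.74 with compound 6, and by 0.06 ± 0.17 after withdrawal (adjusted p = 0.854). For its brightest probe the adjusted p was 0.03 with compound 2 and 0.00437 with compound 6, and vehicle B, at 1.99, stood nearest to compound 2 (2.18 to 2.37). With compound 6 the arrays were at 1.73, 1.76, 2.08 and 1.12, and the last lay below vehicle E (1.16). In chr13:90247709-90253992_R, with 1 kept probe, the rises were 0.97 ± 0.14 and 0.93 ± 0.12, and its neighbour Tmem167 on the opposite strand rose by 0.34 with each. In chr3:19179899-19216399_R they were 0.96 ± 0.24 and 0.69 ± 0.21 on the brightest of 4 probes, while another probe fell by 0.50 with compound 6 (adjusted p = 0.00696) and the other two were not called. The brightest probe lost the call in 7 of 33 alternative settings with compound 2 and in 6 of 33 with compound 6, and chr5:35975265-35982561_F in 7 of 33 with compound 2.

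**Figure D3:**
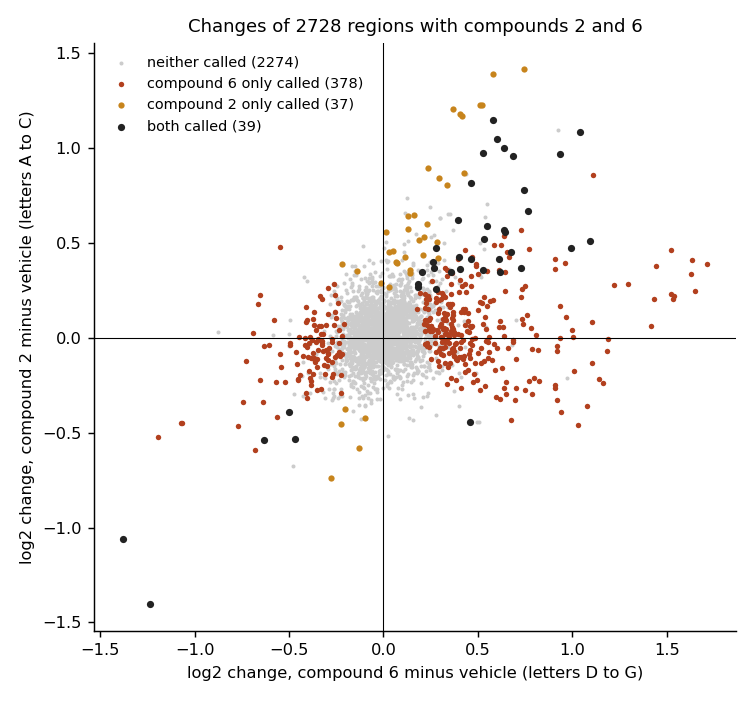
Log2 change of each of the 2728 regions (brightest probe) with compound 6 (horizontal) and compound 2 (vertical), each against vehicles of the same letters. Black points are the 39 regions called with both, and the 2 at the lower left are the regions of chr17 (-1.24 and -1.40) and chr4 (-1.38 and -1.06).

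At the same dose and time compounds 9 and 2 differed in 121 region probes (2.2%), 16 higher and 105 lower with compound 9. Of all probes 4.01% differed (1.22% higher and 2.79% lower). With the letter block 373 region probes differed (6.78%, against 13.5% of all probes). By brightest probe 75 regions differed. In all 75 the sign was opposite to that of compound 2 minus vehicle, and 53 were among the regions called with compound 2. These comparisons share the compound 2 arrays and compound 9 minus vehicle had 0 calls, so opposite signs were largely given in advance. The overlap over all probes is not given for this pair, so the 53 are not read as particular to the regions. The largest called differences, compound 9 minus compound 2, were -1.34 ± 0.33 in chr5:33773842-33942967_F, -1.33 ± 0.32 in chr9:88575075-88611650_F, -1.25 ± 0.31 in chr19:40663924-40669352_F and -1.23 ± 0.24 in chr14:70483555-70484159_F (adjusted p = 0.0238, 0.0238, 0.0247 and 0.00552); the first 3 of these lost the call in 8, 9 and 9 of 33 alternative settings. For chr17:71183978-71185384_F the change with compound 9 was -0.31 with a 95% interval of -0.61 to 0.00, and the difference from compound 2 was 1.09 ± 0.15 (adjusted p = 2.82e-04).

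Compound 6 differed from compound 2 in 41 region probes (0.745%), 37 higher and 4 lower, each set against its own vehicles. Of all probes 0.631% differed (0.388% and 0.243%). With the letter block 436 region probes differed (7.92%, against 8.57% of all probes). Leaving out 1 array gave 9 (without vehicle A) to 324 (without vehicle F), 14 of 21 arrays moving the count by over 1.5 times. The largest called differences were 1.33 ± 0.30 in chr13:60508775-60534625_F, 1.25 ± 0.27 in chr2:48818825-48822612_F, 1.23 ± 0.23 in chr12:83271350-83357214_R and 1.19 ± 0.22 in chr10:83181374-83249774_R (adjusted p = 0.0492, 0.0415, 0.0183 and 0.0153). The first lost the call in 24 of 33 alternative settings (adjusted p up to 0.137), the second in 18 of 33 (up to 0.129) and the chr12 region in 6 of 33. For the chr17 region chr17:71183978-71185384_F the difference was 0.17 with an interval of -0.24 to 0.57 (adjusted p = 0.793). Compound 6 differed from compound 9 in 222 region probes (4.03%), 184 higher and 38 lower, against 5.67% of all probes (3.36% and 2.31%). With the letter block 703 differed (12.8%, against 19.3% of all probes). On leaving out 1 array the count was 107 (without vehicle A) to 518 (without vehicle F). Compound 6 was higher by 2.01 ± 0.46 in chr8:80581177-80621652_F, by 1.80 ± 0.35 in chr18:35967933-35986564_F, by 1.77 ± 0.34 in chr3:151746091-151753763_R and by 1.74 ± 0.36 in chr3:117935228-118089771_F.

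Whether a region moved as a unit could be asked in the 1364 regions with 2 or more kept probes. Across them the change of the brightest and of the second probe correlated at r = 0.628 after withdrawal, 0.609 with compound 6, 0.47 with compound 2 and 0.175 with compound 9; both probes are read on the same arrays, and regions are not replicates. With compound 6 the brightest probe was called in 274 of them. The second probe had the same sign in 221 of these, was called the same way in 122 and the opposite way in 9. Of the 20 regions with several probes that rose 2-fold or more with compound 6, 11 had at least 1 other probe called and 9 had all. A region with high sample signal shows such a split. In chr9:78107225-78118850_F, 16.8 kb from a probe of the glutathione transferase Gsta1, 3 probes between 78117883 and 78118117 rose with compound 6 by 1.05, 0.85 and 0.81, while those starting at 78116834 and 78116894 changed by 0.15 and 0.06.

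**Figure D4:**
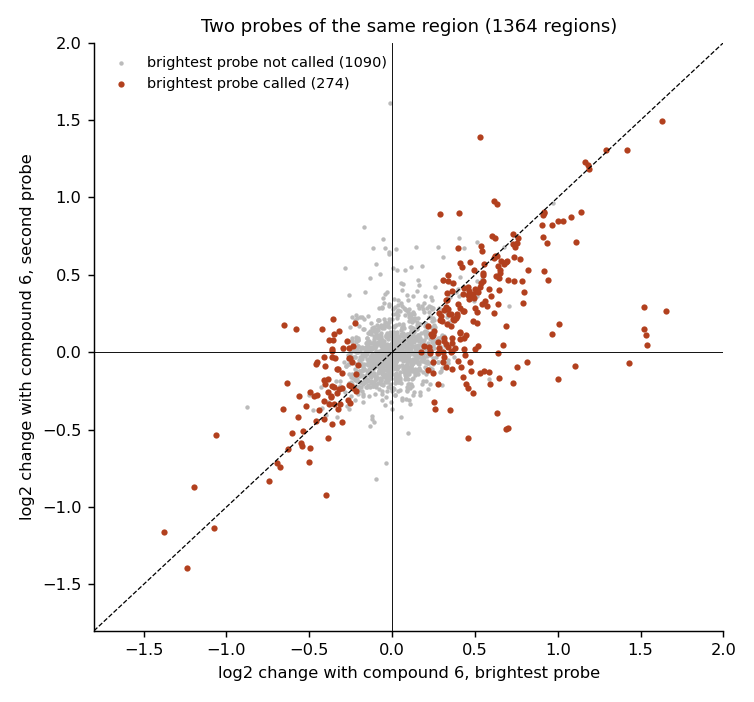
Log2 change with compound 6 of the brightest (horizontal) and the second probe (vertical) of each of the 1364 regions with 2 or more kept probes. Red points are the 274 regions whose brightest probe was called; the dashed line marks equal change, and the group at the right near 0 on the vertical axis is of regions in which only the brightest probe rose.

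Changes of regions correlated most with those of a named gene where they lay over it on the same strand. Regions whose probe overlaps a probe of the gene were not left out, so both may read the same RNA. For the 267 regions whose nearest gene probe lay inside on the same strand, the change of region and gene correlated at r = 0.539 after withdrawal, 0.479 with compound 2 and 0.499 with compound 6, over the same arrays. With a gene probe inside on the opposite strand r was 0.15, 0.109 and 0.104 (166 regions), and within 10 kb on the same strand 0.107, 0.148 and 0.167 (388 regions). Region and gene were both called with compound 6 in 25 regions of the first kind, 21 in the same direction and 4 in opposite ones, and in 20 of the last kind, 9 in the same and 11 in opposite directions. In chr16:30939991-30940193_F, 15.6 kb from Xxylt1, a xylosyltransferase of Notch, compound 6 raised the region from 1.00, 0.84, 1.04 and 0.92 to 2.02, 2.03, 2.09 and 2.02 (1.09 ± 0.08, adjusted p = 2.61e-08) and Xxylt1 fell by 0.56. In chr12:70637975-70638314_R the region rose by 0.99 ± 0.09 (adjusted p = 7.49e-07) and Vcpkmt, a lysine methyltransferase 40.3 kb away, fell by 0.49; in chr13:21856097-21859200_R it rose by 0.73 ± 0.15 and the histone gene H2ac15 fell by 0.98. A set of 3 overlapping reverse regions (chr12:85252300-85253597_R, chr12:85196395-85262884_R and chr12:85210777-85262127_R) rose after withdrawal by 0.86, 0.65 and 0.68 and the ribosomal oxygenase gene Riox1 fell by 0.58. The values 0.65 and 0.68 come from probes that overlap almost wholly, so they are not separate readings.

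Changes of the strands of an interval were weakly correlated. In 516 intervals with a kept probe on both strands, the changes of the strands correlated at r = 0.115 after withdrawal, 0.0497 with compound 2 and 0.081 with compound 6. With compound 6, 136 intervals had 1 strand called, 8 both in the same and 1 both in opposite directions. In chr8:80581177-80621652_F the forward strand rose by 1.63 and the reverse strand (chr8:80581177-80621652_R) changed by -0.28 ± 0.12 (adjusted p = 0.109; 0.0217 with the letter block, which calls it). In chr13:60508775-60534625_R, the reverse of a region that rose by 1.53, the change was -0.07 ± 0.10, whose sign turned in some alternative settings (-0.14 to 0.06).

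Of the genes on the Wnt target and stem cell lists, 8 kept regions had one as nearest gene within 100 kb: 4 near Sox4, 2 near Myc and 1 each near Zcchc12 and Ets2. Withdrawal changed Sox4 by -1.51 and Myc by -2.08, while the regions near them changed by -0.21 to 0.09, none of which passed. Only chr15:61919018-61935580_R near Myc was called, with compound 2, at 0.40 ± 0.11 (adjusted p = 0.0494), and it lost the call in 21 of 31 alternative settings; 1 of the 3 vehicle arrays A to C was well above background there.

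Named long non-coding genes give a comparison from the same arrays. Of 57 on a list, 44 had a probe and 31 were kept. After withdrawal 6 of the 31 fell, where 12% of all probes did: Mir17hg, the host of an oncogenic microRNA cluster, by 0.74, Dancr by 0.71, Snhg6 by 0.70, Snhg3 by 0.69, Snhg1 by 0.62 and Snhg17 by 0.22. Mir22hg rose by 0.73 after withdrawal and by 0.62 with compound 6. With compound 6 Snhg18 (0.50) and Snhg15 (0.27) also rose and Zfas1 fell by 0.56, with compound 2 Snhg18 (0.51) and Peg13 (0.50) rose, and with compound 9 none was called. The median of the 31 was -0.07 after withdrawal and 0.02 with compound 6, beside -0.01 and -0.03 over all probes tested.

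Probes that hold certain short sequences rose more often than other probes, although most rising probes lack them: with compound 6, GTGTCTG was in 27 and GCCCTCCC in 10 of the 632 region probes that rose. The sequences were searched after their values had been seen, so the counts describe these arrays and carry no test. GTGTCTG was held by 65 kept region probes of 56 regions (1.18%; 0.816% of all region probes on the array and 0.777% of the other probes). With compound 6, 27 of the 65 rose and 2 fell (41.5% higher, against 11.5% of all kept region probes), and their median change was 0.17 against 0.01. After withdrawal 16 rose (24.6% against 6.61%), with compound 2 1 rose (1.54% against 1.8%) and with compound 9 0. Among 219 other probes with GTGTCTG, 70 rose with compound 6 (32% against 10.5%). The reverse complement CAGACAC was in 40 region probes, of which 8 rose (20%). GTGTCTG was picked because it came first when sequences of 7 letters were ranked by the share of region probes that rose with compound 6. That ranking held 514 sequences, each in at least 50 region probes (median 10.3%). The place of GTGTCTG there and its share of 41.5% thus follow from the choice. Among the other probes it was number 4 of 10062. GTGTGTG led there (127 of 332, 38.3%) and was picked for that. In region probes GTGTGTG was held by 82, of which 20 rose (24.4%), and its complement CACACAC by 51, of which 13 rose (25.5%). A probe can hold both GTGTCTG and GTGTGTG.

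**Figure D5:**
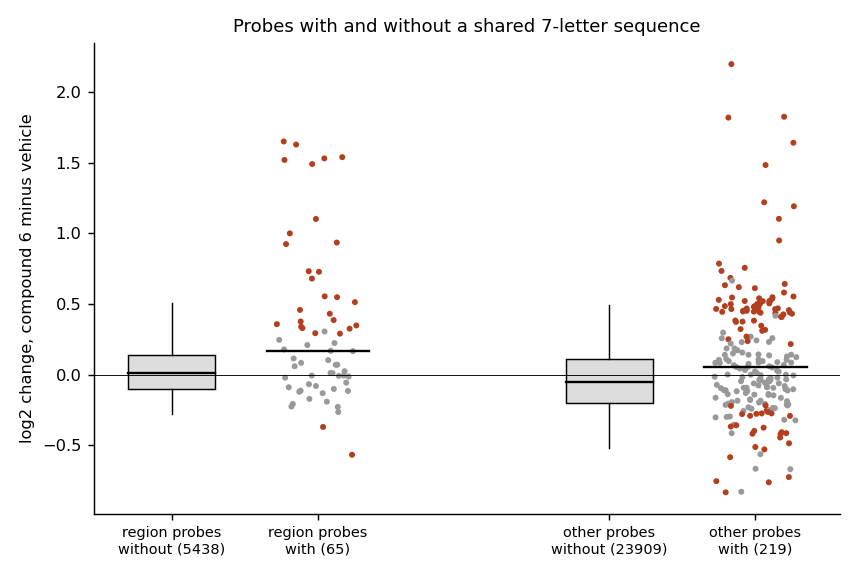
Log2 change with compound 6 of single probes that hold the 7-letter sequence (points, red where called; line, median) beside the rest (box, interquartile range; line, median; whiskers, 5th to 95th percentile), for region probes and other probes. The median of the 65 region probes with it is 0.17, against 0.01 for the 5438 without it. The sequence was picked by the share of region probes that rose with compound 6.

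The longer TGGTGTCTGTGGGTGATTTCT was in 4 kept region probes (0.0727%) of 2 regions, chr3:151746091-151753763_R and chr12:83271350-83357214_R, and in 0 of the other probes on the array. All 4 rose, by 0.92 to 1.63 with compound 6 and by 0.62 to 1.05 after withdrawal, and changed by -0.13 to 0.33 with compound 2. The run was derived from probes of these 2 regions, which were named for large changes or differences with compound 6. Their rises thus follow from the choice and are no support for the sequence. The reverse complement AGAAATCACCCACAGACACCA was in 2 kept probes of 1 region, which changed by 0.06 and 0.27 with compound 6, and 1 of them passed. TCCTGCCCCAC was in 4 kept region probes (0.0727%) of 3 regions and in 0 of the other probes on the array. It was derived from the brightest probes of these 3 regions, 2 of which were named for their rises with compound 2. With compound 2 the changes were 1.23 in chr5:74487385-74497428_F, 1.21 in chr14:70483555-70484159_F, and 0.95 (adjusted p = 0.0819) and 0.13 on 2 probes of chr19:5771425-5848475_F that overlap and both hold it. Its complement GTGGGGCAGGA was in 0 kept probes.

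GCCCTCCC was in 20 kept region probes of 20 regions (0.363%; 0.13% of all region probes on the array and 0.0734% of other probes). With compound 2, 8 rose and 0 fell (40% against 1.8%; median change 0.32), with compound 6 10 rose and 0 fell (50% against 11.5%; median 0.22), after withdrawal 5 rose and with compound 9 0. Among 28 other probes, 7 rose with compound 2 (25%) and 12 with compound 6 (42.9%). The complement GGGAGGGC was in 9 kept region probes, 0 of which were called. GCCCTCCC was picked as first by the share that rose with compound 2, among 635 sequences of 8 letters in at least 20 region probes. Its place there and its share of 40% thus follow from the choice. Ranked for compound 6 it was number 2, after GTGTCTGT (60.7% of 28). GCCCTCCC is held by chr2:77715502-77719430_F, chr12:70637975-70638314_R and chr16:30939991-30940193_F. A match describes the probe and is not a binding site or a cause.

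The 6 regions with the highest mean sample signal were chr9:78107225-78118850_F and chr9:78104935-78116974_F near Gsta1, chr6:40699474-40719122_F and chr6:40693617-40720167_F over Mgam, an intestinal disaccharidase, chr1:193875525-193978800_R over the corepressor gene Rcor3, and chr19:5771425-5848475_F, which holds a probe of the paraspeckle RNA Neat1 on the opposite strand. With compound 6 their brightest probes changed by 0.06 and 0.03 (signs that turned in some alternative settings), 0.11, 0.10, 0.73 and 0.29. Only the last 2 passed (adjusted p = 7.08e-04 and 0.0213). The rise in chr1:193875525-193978800_R was from 2.24, 2.02, 1.76 and 2.10 in vehicles D to G to 2.96, 2.90, 2.67 and 2.53, with no overlap, and -0.20 on its second probe.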

How the data were processed

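The deposited scanner files hold the intensity of each spot in both channels and Agilent's log10 ratio of red over green, written by Feature Extraction 10.7.3.1 per the file headers, and the deposited value table holds log2 values of the same arrays. Background was corrected with normexp (offset 50), each array was normalised by loess, spots of a probe were averaged, and log2 Cy3 over Cy5 was taken. Control spots and 157 non-uniform spots were left out; 0 spots were saturated. Probes above background on 3 or more arrays (29631) entered one limma 3.58.1 fit (R 4.3.3) over all 21 arrays, with 5 groups and the letter set as terms. Called means a Benjamini-Hochberg adjusted p under 0.05 over all probes. A region stands by its kept probe with the highest mean Cy3 signal. Positions are in mm9. Nearest genes come from positions of the array's own gene probes, with symbols updated through a RefSeq table.

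The members, lists and tests were chosen with earlier results of these data known. Regions were named by rule. The 6 largest called rises and falls against vehicle were taken among regions that changed the same way in every letter. For these, agreement between letters was a condition of the choice and is no separate support. The other rules took the largest called differences between treatments, regions called in 2 comparisons, the brightest regions, strand partners, and regions called with their neighbouring gene. The repeated sequences were chosen after values were seen. Letters pair the arrays: 21 same-letter pairs deviated together (r 0.196 to 0.729, median 0.5; other letters, median -0.174), by the data and not by a label, and the letter block was an alternative. Further alternatives were Agilent's own ratio, Cy3 alone, the deposited value table, other filters and offsets, the slide as a block, and leaving out each array. The steps were tested on simulated data in which noise was independent between arrays, so that test did not cover the pairing by letter.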

Additional observations from a re-analysis of the deposited data

Results flagged for a closer look

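An array apart from the other 3 was sought in 174 groups of 4 arrays. These came from 57 named regions and from the number of region probes above background on each array. In 16 groups, all of named regions, 1 array stood out by the gap to its nearest neighbour against the range of the group. Chance alone flags about 1 group in 20.

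Vehicle F stood apart in 8 regions. It lay at 3.86 in chr14:33975934-33998694_R (others 2.71 to 2.87), at 1.38 in chr9:40266027-40266460_R (0.71 to 0.77), at 2.74 in chr5:33773842-33942967_F (1.44 to 1.48), at 2.65 in chr2:77715502-77719430_F (all others 2.61) and at 0.34 in chr10:83181374-83249774_R (-0.39 to -0.29). It was the lower array at -2.72 in chr14:44292637-44293014_F (-1.50 to -1.42), at -2.15 in chr11:16831925-16851121_R (-0.60 to -0.32) and at -4.44 in chr17:95150800-95180650_F (-3.18 to -2.93).

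The other arrays that stood apart were withdrawal F at 0.74 in chr19:40663924-40669352_F (1.67 to 1.82) and at 1.58 in chr1:135956616-135957485_R (2.09 to 2.17), withdrawal G at 0.56 in chr17:71183978-71185384_F (0.95 to 1.03) and vehicle D at -0.02 in chr9:56910620-56919495_R (0.49 to 0.54). With compound 6 they were array D at -0.35 in chr4:132897264-132910714_R (-0.18 to -0.16), array F at 2.09 in chr16:30939991-30940193_F (2.02 to 2.03), and array G at 3.64 in chr19:5771425-5848475_F (3.93 to 3.97) and at 1.1 in chr12:85210777-85262127_R (1.81 to 1.91).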

How the results depend on the processing

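Of the 80 named changes, 70 were called, and 0 of these changed sign in the alternatives run; of the 10 not called, 4 changed sign in at least 1 alternative and stayed uncalled. Of the 70, 47 stayed called with Agilent's own ratio, 64 with Cy3 alone, 46 with the deposited value table, 53 without the set term, 67 with the slide as a block, 53 with only the arrays compared and all 70 with the letter as a replicate block; leaving out 1 array kept 55 to 70. The cause of these shifts was not tested.

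Counts of called region probes moved more. For compound 2 minus vehicle (127, 99 higher and 28 lower) they were 73 with Agilent's ratio (42 and 31), 94 with Cy3 alone (63 and 31), 76 with the value table, 482 without the set term, 70 with only the arrays compared and 271 without letter F. For withdrawal they were 255 with only the arrays compared and 891 without letter F, and for compound 6 531 with only the arrays compared. For compound 9 minus vehicle 2 passed with the value table. For compound 9 minus compound 2 (16 higher and 105 lower) they were 59 with Agilent's ratio (17 and 42), 64 with Cy3 alone (24 and 40), 69 with the value table, 22 without the set term, 55 with only the arrays compared and 222 without letter F. For compound 6 minus compound 2 (37 and 4) they were 10, 78, 15 (11 and 4), 1919, 11 and 291 in the same order. For compound 6 minus compound 9 they were 144 with Agilent's ratio, 1805 without the set term, 93 with only the arrays compared and 469 without letter F. For compound 6 minus withdrawal (189 and 190) they were 150 without the set term and split 133 to 234 with Agilent's ratio. The replicate block gave 1144 for withdrawal, 446 for compound 2, 1393 for compound 6, 373 for compound 9 minus compound 2, 436 and 703 for compound 6 minus compounds 2 and 9, and 885 for compound 6 minus withdrawal. The shares of all probes that it called are given with each comparison above.

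Leaving out 1 array gave 255 (without vehicle E) to 1011 (without vehicle F) for withdrawal, where leaving out vehicle D or G or withdrawal D or F also moved the count by over 1.5 times. The range was 49 (without compound 2 A) to 179 (without vehicle F) for compound 2, where compound 2 C and vehicle A also did so, and 602 to 1138 for compound 6. It was 43 (without compound 2 A) to 161 for compound 9 minus compound 2, where compound 2 C and each compound 9 array also did so. It was 9 (without vehicle A) to 324 (without vehicle F) for compound 6 minus compound 2, with 14 of 21 arrays moving it so, and 107 (without vehicle A) to 518 (without vehicle F) for compound 6 minus compound 9, where vehicle E and G and compound 9 A and B also did so. It was 243 (without withdrawal G) to 493 for compound 6 minus withdrawal, and 22 to 30 for the 27 probes with GTGTCTG that rose with compound 6. Small numbers of arrays limit the precision, and probes near background have the least.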
